A study of Mus musculus with 6 samples.

Results

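The 8 genes described here move cholesterol out of cells or back into the liver, or are tied to the liver X receptors: Abcg5, Abcg8, Abca1, Abcg1, Nr1h3, Mylip, Lpcat3 and Scarb1. They were picked by name, because the level of Abcg5 doubled after anti-PD-1 in these same libraries, so their difference between the groups is given as a description with no p-value. All 8 were found among the 21512 genes of the table, and all 8 were among the 13990 genes that passed the filter on low values (at least 1 unit in at least 3 libraries). The samples were livers of 6 C57BL/6J mice, all fed a high-fat diet and given carbon tetrachloride (CCl4) over 12 weeks to model fibrotic steatohepatitis (MASH). Every 3 days of that period, 3 of them were given an antibody against PD-1, a receptor that restrains activated T cells, while the other 3 got an isotype control. The titles name PD-1 for all 3 treated mice, while the treatment field of replicates 2 and 3 reads Anti-PD-2 and Anti-PD-3 antibody. No group without the diet and CCl4 was analysed here, and the age and sex of the mice are not given in the sources used here.

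Cholesterol leaves the liver through bile and through high-density lipoprotein (HDL). ABCG5 and ABCG8 are subunits of a single heterodimeric pump in the canalicular membrane that secretes cholesterol and plant sterols into bile, and neither works without the other. The liver X receptors (LXR), encoded by Nr1h3 and Nr1h2, bind oxysterols, pair with RXR on DNA, and switch on genes of sterol efflux and of fatty acid synthesis.

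Abcg5 and Abcg8 lie head to head, so the stretch between their starts is upstream of both, and it is shown because the levels of the pair varied together across the libraries. In the RefSeq promoter table of GRCm38.p6, an older build than the GRCm39 that the submitters name, it spans chr17:84683012-84683120, 109 bases, given here on the plus strand, the strand of Abcg8. Capitals mark the GATA box AGATAA on either strand, the motif of the GATA transcription factors, with 2 matches.
Abcg5-Abcg8: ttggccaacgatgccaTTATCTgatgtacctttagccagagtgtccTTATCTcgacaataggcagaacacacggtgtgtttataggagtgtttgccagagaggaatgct
Of 32851 promoter windows of 300 bases in that table, 11.2% hold AGATAA on either strand. The window of Abcg5 and the matching window of Abcg8 overlap and each hold 3 matches, 2 of them the ones printed. A direct repeat of AGGTCA with 4 bases between the copies (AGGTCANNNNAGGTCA, either strand), the consensus bound by LXR with RXR, was in none of the members' windows and in 0.0152% of all windows. A looser form of that repeat, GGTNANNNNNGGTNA, chosen like the GATA box after the windows had been seen, was in 0.718% of all windows and, among the members, in that of Abca1 alone. That stretch, at chr4:53159941-53159969 of GRCm38.p6 on the minus strand, is shown because Abca1 is the member whose window holds such a repeat, and capitals mark the match, which lies on the opposite strand at positions -67 to -53 from the start.
Abca1: cagcgttTGACCGGTAGTAACCccggcgc
Neither AGGTCA, in 16.3% of all windows, nor the site of the nuclear receptor LRH-1 written as CAAGGTCA, which contains it and was in 1.56%, was found in a member's window. Windows were at hand for 6 of the 8 members, with no entry for Abcg1 and Scarb1. The matches describe letters in these windows.

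Both subunits of the canalicular pump had higher values in each anti-PD-1 mouse than in any control mouse. The values are CPM (reads scaled to a common library size) of a library scaled by the trimmed mean of M-values (TMM), called units here. Abcg5 was at 50.01, 77.3 and 85.4 units in isotype control replicates 1 to 3 and at 114, 160 and 157 units in anti-PD-1 replicates 1 to 3. Its lowest treated mouse lay above its highest control, and replicate 1 was the lowest of its group on both sides. The means were 70.9 ± 18.5 units (SD, n = 3) and 144 ± 25.7 units (n = 3), a ratio of 2.03, and the log2 fold change on log2(value + 0.5) was 1.04 ± 0.22 (SE). Abcg8 was at 45.4, 79.9 and 82.1 units in controls and at 108, 135 and 163 units in treated mice. These groups did not overlap either, and the replicates numbered 1 were again the lowest. Its means were 69.1 ± 20.6 and 136 ± 27.4 units (SD, n = 3 each), a ratio of 1.96, and its log2 fold change was 1.00 ± 0.25 (SE). Among all 13990 tested genes, 188 had a log2 fold change at or above that of Abcg5, itself included, and 217 at or above that of Abcg8. When isotype control replicate 1, the lowest mouse for both genes, was left out, the log2 fold changes were 0.80 and 0.72.

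The proportion of the partners did not separate the groups. The ratio of Abcg5 to Abcg8 per kilobase of merged exons (GENCODE M21) was 1.52, 1.34 and 1.44 in the controls and 1.46, 1.64 and 1.33 in treated mice, so the groups overlapped and all 6 ratios lay between 1.33 and 1.64. On the log2 scale the pair had a Pearson correlation of 0.98 over the 6 libraries and of 0.95 after the group means were taken out, given as a description over libraries that share those group differences. Exons of the pair overlap on opposite strands over 82 bases, 3.02% of the exonic length of Abcg5 and 2.19% of that of Abcg8, and a second RefSeq start of Abcg8 lies inside Abcg5. The library kit keeps strand, but whether counting used it is not given in the sources used here, so reads of that overlap cannot be told apart.

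**Figure D1:**
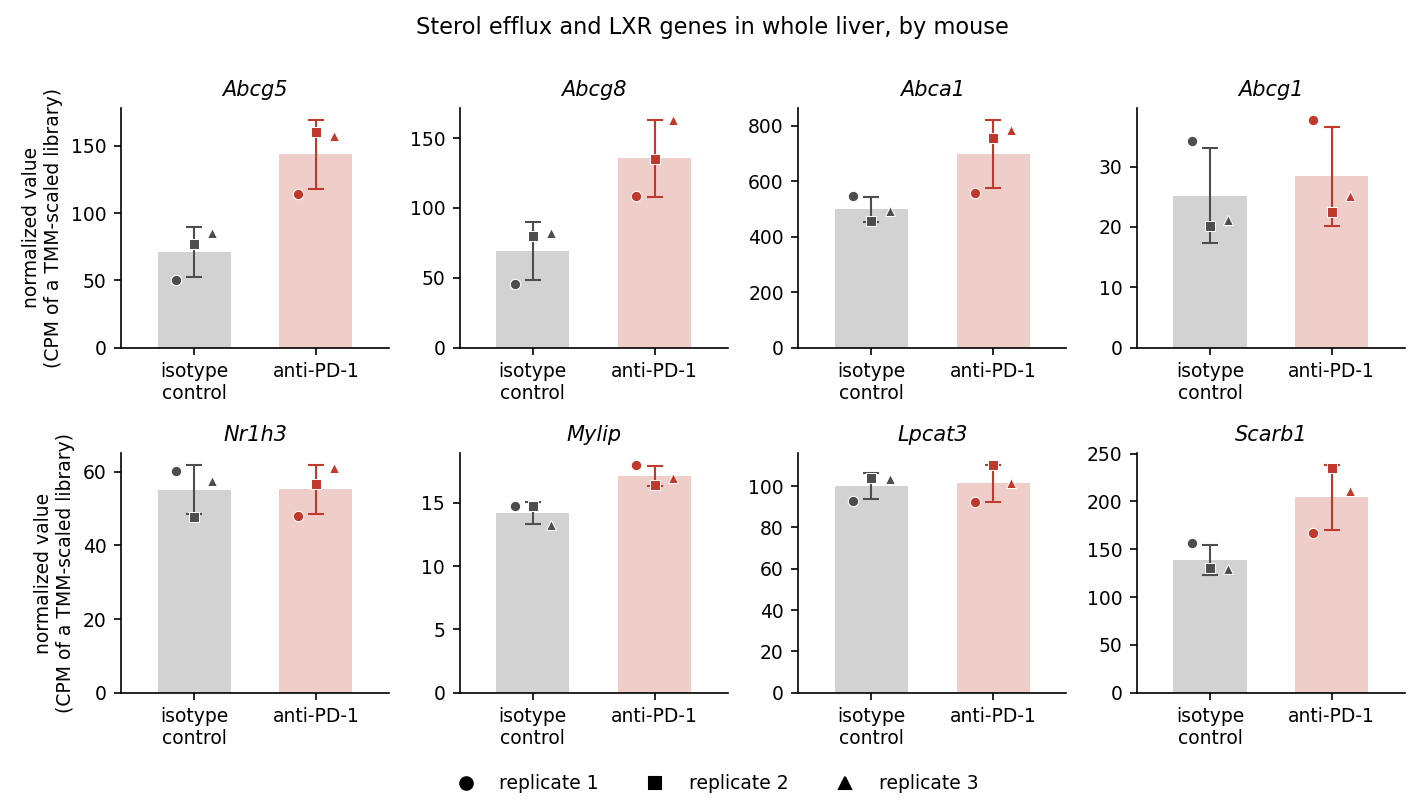
Normalized value (CPM of a TMM-scaled library) of each of the 8 genes in each mouse, with bars for the group mean, error bars for the SD (n = 3 per group) and a symbol for the replicate number. The anti-PD-1 points lie above every control point for Abcg5, Abcg8, Abca1, Scarb1 and Mylip, and overlap the controls for Abcg1, Nr1h3 and Lpcat3.

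The transporters of the HDL route showed smaller differences, with another order among the control mice. Abca1, which loads cholesterol and phospholipid onto apolipoprotein A-I to form nascent HDL, was at 546, 458 and 491 units in controls and at 557, 756 and 783 units in treated mice. The groups were separated by a narrow margin, since anti-PD-1 replicate 1 lay just above control replicate 1. Its log2 fold change was 0.47 ± 0.16 (SE). Scarb1 encodes SR-BI, the receptor that takes up cholesteryl esters from HDL into hepatocytes. It was at 157, 131 and 129 units in controls and at 167, 235 and 211 units in treated mice, with a log2 fold change of 0.55 ± 0.15 (SE). Here too anti-PD-1 replicate 1 was the lowest treated mouse and lay close to control replicate 1, the highest control. Control replicate 1 thus had the lowest Abcg5 and Abcg8 of all 6 mice but the highest Abca1 and Scarb1 of the controls. Over the 6 libraries, group differences included, Abca1 and Scarb1 correlated at 0.97 with each other and at 0.77 and 0.75 with Abcg5. After the group means were taken out, the same correlations were 0.91, 0.20 and 0.02. These last values are over 6 libraries, with fewer free values because the group means were taken out.

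Abcg1, which hands cholesterol to mature HDL and is prominent in macrophages, did not separate the groups. It was at 34.2, 20.1 and 21.2 units in controls and at 37.8, 22.4 and 25.1 units in treated mice. Replicate 1 was the highest of each group, the reverse of Abcg5. The log2 fold change of 0.18 ± 0.25 (SE) turned to -0.04 when anti-PD-1 replicate 1 was left out, and leaving out isotype control replicate 1 gave 0.42. The 8 monocyte and macrophage markers, none of them at 0 in any library, summed to 428, 245 and 232 units in controls and to 1115, 254 and 359 units in treated mice, so the same libraries were high. Cd68, a lysosomal protein of macrophages named here after its values were seen, was at 16.2, 6.60 and 7.04 units and at 20.7, 7.72 and 8.43 units. Its part in the Abcg1 levels was not tested, and in bulk tissue fewer cells of a type and less RNA per cell cannot be told apart.

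**Figure D2:**
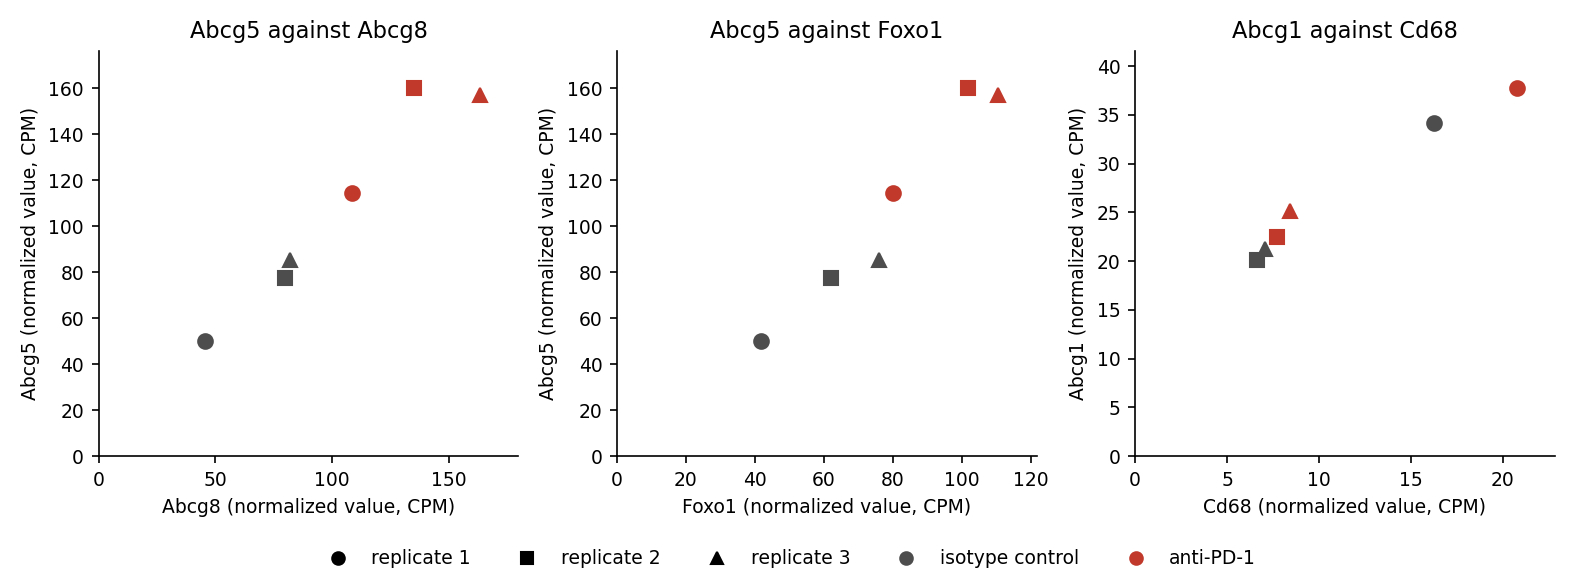
Abcg5 against Abcg8, Abcg5 against Foxo1 and Abcg1 against Cd68, each point 1 mouse, with both axes in normalized units (CPM of a TMM-scaled library) from 0, grey for isotype control and red for anti-PD-1. In the first 2 panels every treated mouse lies above every control on the Abcg5 axis, whereas in the last the replicates numbered 1 of both groups stand apart at the top.

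The receptor gene and the other LXR-linked members differed little. Nr1h3, which encodes LXR alpha, was at 60.3, 47.7 and 57.5 units in controls and at 48.1, 56.7 and 61.2 units in treated mice. Its groups overlapped fully, and its log2 fold change was 0.003 ± 0.133 (SE). Mylip encodes IDOL, a ubiquitin ligase that limits cholesterol uptake by cells. It was at 14.7, 14.7 and 13.2 units in controls and at 18.01, 16.4 and 16.97 units in treated mice, separated groups with a log2 fold change of 0.26 ± 0.11 (SE). Lpcat3, an acyltransferase that builds polyunsaturated chains into membrane phospholipids, was at 92.6, 104 and 104 units in controls and at 92.5, 110 and 102 units in treated mice. Its groups overlapped, and its log2 fold change was 0.02 ± 0.10 (SE). The signs of Nr1h3 and Lpcat3 turned with the library left out, over -0.10 to 0.10 for Nr1h3 and -0.04 to 0.08 for Lpcat3, and both were negative with total-count scaling and with quantile normalization.

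By limma's test with Benjamini-Hochberg adjustment over all tested genes at 0.05, 0 of the 8 members passed, against a background of 0.00715% of tested genes called higher (1 gene) and 0% called lower. At an unadjusted p under 0.05, 4 of the 8 were counted higher and 0 lower, against 5.04% and 6.24% of all tested genes. edgeR's quasi-likelihood test on recovered reads called 0 members (background 0.00715% higher). DESeq2 called 3, Abcg5, Abcg8 and Scarb1, with 1.05% of genes called higher and 0.779% lower, and limma with the replicate block called 1, Abcg5, with 0.193% higher and 0.0929% lower. In 5 of 8 members all anti-PD-1 values lay above all control values, against 7.13% of tested genes, and in 0 all lay below, against 9.98%. Since the members were picked with this contrast known, nothing is read from these counts. The median log2 fold change was 0.37 over the 8 members and 0.003 over all tested genes.

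**Figure D3:**
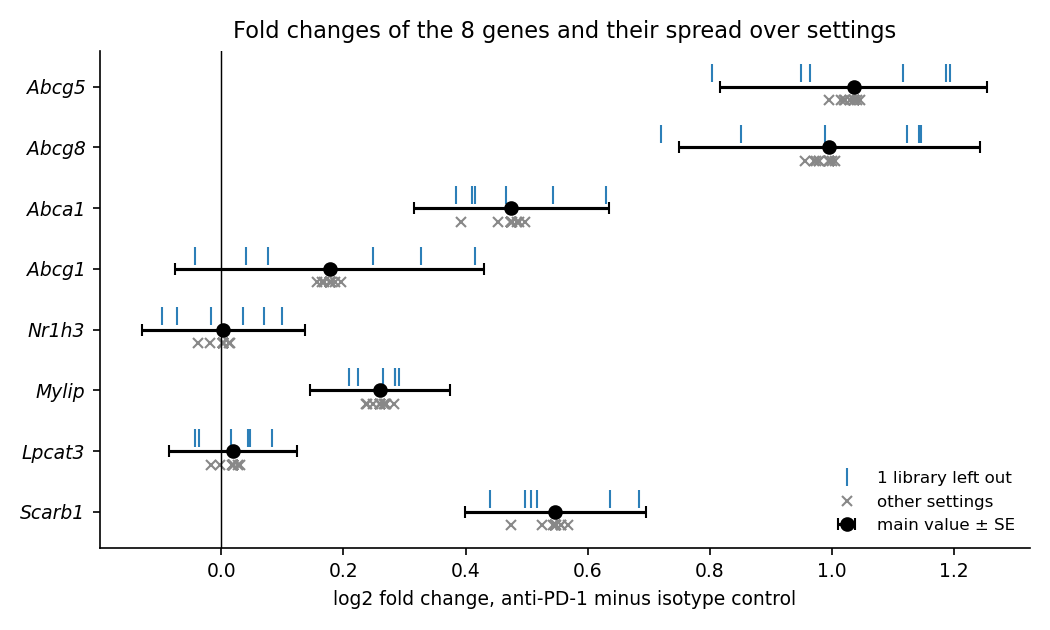
Log2 fold change (anti-PD-1 minus isotype control) of each of the 8 genes, with black points and bars for the main value ± SE, blue ticks for fits that leave out 1 library each and grey crosses for the other settings. Abcg5 stays between 0.80 and 1.19 and Abcg8 between 0.72 and 1.15 when 1 library is left out, while Abcg1, Nr1h3 and Lpcat3 cross 0.

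Per kilobase of merged exons, the control levels ran from Abca1 at 48.1 ± 4.30 units through Lpcat3 (30.6 ± 1.98), Abcg5 (26.1 ± 6.84), Nr1h3 (21.9 ± 2.63), Abcg8 (18.4 ± 5.48) and Scarb1 (16.3 ± 1.82) to Mylip (4.40 ± 0.27) and Abcg1 (3.45 ± 1.07; SD, n = 3 each). The ranges over the 3 control mice were apart for Abca1 and Lpcat3 and for Scarb1 and Mylip, and overlapped for the other neighbours in this order. Merged exons count every annotated exon of a gene, 8.5 kb for Scarb1 and 2.71 kb for Abcg5. Which exons the transcripts here used was not measured, so the order holds for that length only. After anti-PD-1 the level of Abcg5 was 53.0 ± 9.47 and that of Abca1 67.5 ± 11.9 units per kilobase.

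The other genes of the pathway came from 11 lists written for this comparison. Over these lists limma, edgeR and limma with the replicate block called 0 genes, and DESeq2 called 2, Acaca and Cyp7a1, both lower. Of all tested genes DESeq2 called 1.05% higher and 0.779% lower, so nothing about the pathway is read from these 2 calls. At an unadjusted p under 0.05, 5.04% of all tested genes were higher and 6.24% lower. Those shares are the background for the unadjusted counts of each list below. A list of 12 receptor and coregulator genes repeats the member Nr1h3, so its values partly restate that member's. In it 0 genes passed limma's adjusted threshold in either direction, with 1 higher and 0 lower at an unadjusted p under 0.05. Its median log2 fold change was 0.05 (-0.01 without anti-PD-1 replicate 2 to 0.13 without anti-PD-1 replicate 1). Nr1h2, the gene of LXR beta, was at 23.3 ± 0.56 units in controls and 26.0 ± 0.55 after anti-PD-1 (SD, n = 3 each, limma adjusted p = 0.581), and Rxra, the main hepatic RXR, at 449 ± 15.1 and 476 ± 63.7 (adjusted p = 0.856).

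LXR targets outside sterol efflux did not share one direction. Of 12 genes of fatty acid synthesis and lipoprotein remodelling, 9 had negative log2 fold changes and 0 passed by limma (median -0.25, with 1 higher and 2 lower at an unadjusted p under 0.05). Srebf1, an LXR target that drives fatty acid synthesis, was at 355, 427 and 505 units in controls and 458, 845 and 854 in treated mice, overlapping groups with a log2 fold change of 0.70 ± 0.26 (SE, limma adjusted p = 0.38). Acaca, the acetyl-CoA carboxylase gene, was at 450 ± 33.7 and 340 ± 7.75 units (SD, n = 3 each, limma adjusted p = 0.269), and DESeq2 called it lower. Srebf1 and Acaca thus had opposite signs. A list of 8 LXR targets known from macrophages repeats the members Abca1 and Abcg1, so its values partly restate theirs. In it 0 passed by limma and the median was 0.16. At an unadjusted p under 0.05, 2 were counted higher, Mertk and a member, and 0 lower. Those shares over all tested genes were 5.04% and 6.24%, and nothing is read from a member's count. Leaving out isotype control replicate 1 moved the median to 0.39, and leaving out anti-PD-1 replicate 1 moved it to 0.04. Mertk, a receptor for dying cells, was at 31.3 ± 1.78 and 40.7 ± 6.71 units (SD, n = 3 each, limma adjusted p = 0.389).

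On the HDL and uptake side, values for the partners of the members were mixed. Of 9 tested genes of HDL formation, 7 had negative log2 fold changes, with 0 passing by limma (median -0.28, or -0.13 without anti-PD-1 replicate 1, with 0 higher and 2 lower at an unadjusted p under 0.05). Apoa4, an apolipoprotein of triglyceride-rich particles and HDL, was at 1420 ± 480 and 887 ± 216 units (SD, n = 3 each, limma adjusted p = 0.42). Lipg, endothelial lipase, was at 43.2 ± 2.02 and 35.6 ± 4.00 units (limma adjusted p = 0.419). For 11 tested genes of sterol uptake and intracellular transport the median was 0.07, with 0 passing by limma and 0 at an unadjusted p under 0.05. Its sign turned with the library left out, to -0.06 when that was isotype control replicate 1 and to -0.02 when it was anti-PD-1 replicate 2. Npc1l1, the cholesterol importer, was not matched in the table. For 14 genes of SREBP2 and cholesterol synthesis the median was -0.10, also with 0 passing and 0 at an unadjusted p under 0.05, and it ran from -0.21 without isotype control replicate 1 to 0.02 without isotype control replicate 3.

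Bile acid synthesis, the other route of hepatic cholesterol disposal, held the largest single difference of these lists. Cyp7a1, its rate-limiting enzyme, had 281, 476 and 263 units in controls against 106, 127 and 127 in treated mice, groups with no overlap (log2 fold change -1.45 ± 0.22 SE, limma adjusted p = 0.129). DESeq2 called it lower, whereas limma and edgeR did not. Cyp7b1, an oxysterol hydroxylase, was at 34.8, 26.2 and 16.1 units in controls and at 23.7, 79.0 and 83.7 in treated mice (log2 fold change 1.12 ± 0.49 SE, limma adjusted p = 0.445). Its anti-PD-1 replicate 1 lay inside the control range, and leaving that library out gave a log2 fold change of 1.71. Of the other bile pumps, Abcb11 and Abcb4 had lower means after anti-PD-1 without passing the test. Abcb11, the bile salt export pump, was at 824 ± 170 and 622 ± 55.5 units (SD, n = 3 each, limma adjusted p = 0.443), and Abcb4, which delivers phosphatidylcholine to bile, at 427 ± 15.1 and 365 ± 44.8 units (limma adjusted p = 0.518). Over 8 other canalicular transporters the median was -0.09, with 0 higher and 1 lower at an unadjusted p under 0.05, and 0.01 without isotype control replicate 3. Over 10 other ABCA and ABCG genes it was -0.03 and over 6 tested acyltransferases related to Lpcat3 0.04, with 0 genes at an unadjusted p under 0.05 in either list. The former ran from -0.12 without isotype control replicate 3 to 0.05 without isotype control replicate 1, and the latter was -0.03 with no filter on low values.

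**Figure D4:**
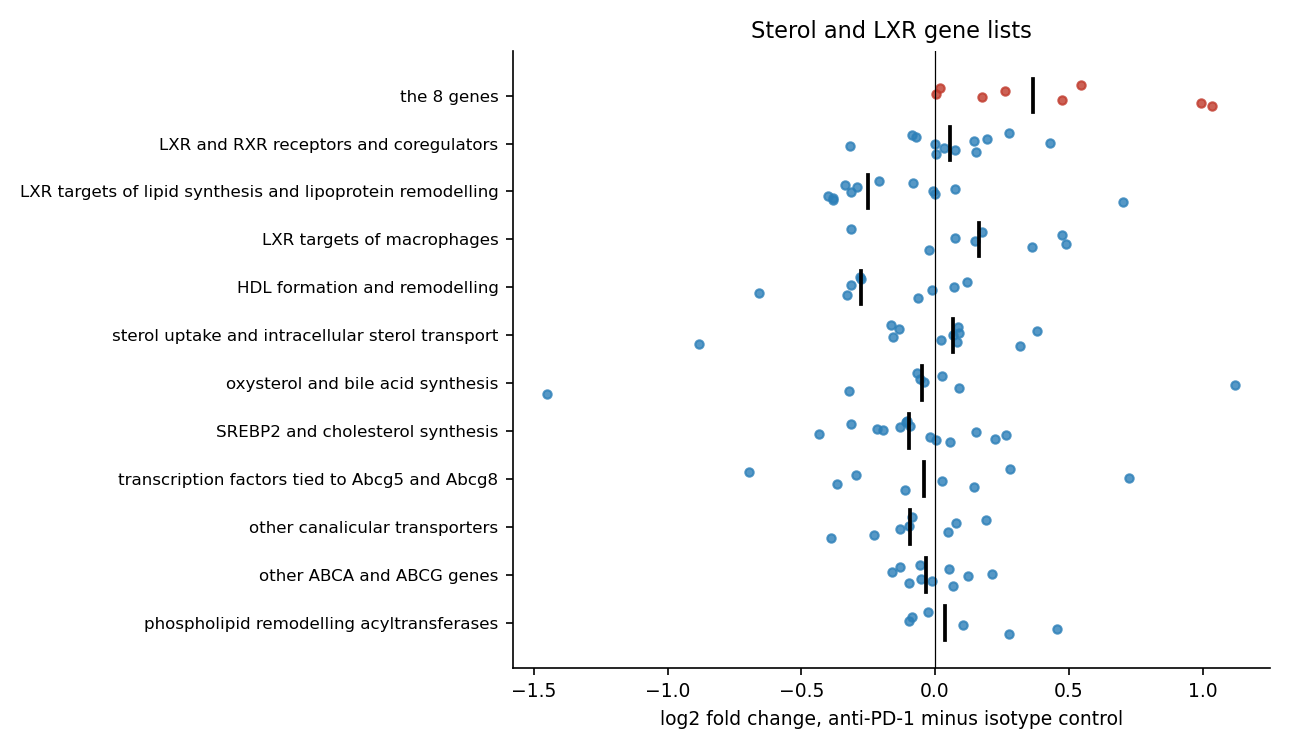
Log2 fold change (anti-PD-1 minus isotype control) of every tested gene in the 8 members (red) and in the other sterol lists (blue), with a black bar at each list's median. Members that a list repeats are drawn in it again. The members' median is 0.37, that of fatty acid synthesis and lipoprotein targets -0.25, and Cyp7a1 is the lowest point at -1.45.

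Among 8 transcription factors tied to the Abcg5 and Abcg8 promoter, 0 passed by limma, with a median of -0.04. At an unadjusted p under 0.05, 1 was higher and 2 lower, against 5.04% and 6.24% of all tested genes. That median ran from -0.11 (isotype control replicate 1 left out) to 0.008 (anti-PD-1 replicate 2 left out). Foxo1, a factor that insulin keeps out of the nucleus, was at 41.9, 62.0 and 75.9 units in controls and at 79.9, 102 and 111 in treated mice. These groups did not overlap, and replicate 1 was the lowest of each, as for Abcg5 (log2 fold change 0.73 ± 0.22 SE, limma adjusted p = 0.311). Its correlation with Abcg5 was 0.98 over the 6 libraries and 0.97 after the group means were taken out. With Abcg1 and Cd68, Abcg5 correlated at -0.22 and -0.25 over the 6 libraries and at -0.96 and -0.95 on that second measure. What lies behind these correlations was not tested. Nr1h4, the bile acid receptor FXR, was at 121 ± 3.19 and 98.8 ± 5.09 units (SD, n = 3 each, limma adjusted p = 0.307), and its target Nr0b2, the repressor SHP, at 13.8 ± 3.68 and 8.32 ± 2.30 units (limma adjusted p = 0.374). Nr5a2, which encodes LRH-1, was at 94.6 ± 3.19 and 87.6 ± 6.46 units (limma adjusted p = 0.687), and Hnf4a at 506 ± 47.1 and 566 ± 110 units (limma adjusted p = 0.77). Gata4 and Gata6, whose family motif is in the stretch printed above, were at 16.5 ± 2.25 and 12.7 ± 2.12 units and at 8.64 ± 1.18 and 8.82 ± 1.25 units (limma adjusted p = 0.452 and 0.968). Both were named outside the rule, after their values were seen.

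Genes whose pattern over the 6 libraries was most like that of Abcg5 were ranked by Pearson correlation of log2(value + 0.5) among 12255 named genes. The first 5 were Sik1, Sgtb, Slc23a2, Uvrag and Zfp869 (0.997 to 0.993). Sik1, a salt-inducible kinase, was at 69.4, 122 and 154 units in controls and 223, 327 and 314 in treated mice. Abcg8 ranked 21 and Foxo1 ranked 34, Srebf1 300, Abca1 1014 and Scarb1 1099. After the group means were taken out, the first 5 were Cidec, Gpcpd1, Dusp4, Clip1 and Narf (0.999 to 0.997). Foxo1 then ranked 85 and Abcg8 216. With 6 libraries, 149 genes in the first ranking and 223 in the second reached 0.95, so a high rank is shared by many genes.

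The livers carried hepatocyte marker RNA throughout: Alb was at 46646 to 69086 units, and of the 7 hepatocyte markers found 0 were called by limma or DESeq2 and 0 had an unadjusted p under 0.05. In 1 of the 7, Ttr, all anti-PD-1 values lay below all control values (3707 ± 534 and 2778 ± 290 units in controls and treated mice, SD, n = 3 each). That was so for 9.98% of tested genes. The libraries held 15528364 to 20779319 recovered reads, and a limit of 3 reads, which covers counting error only, corresponds to 0.144 to 0.2 units, below every value of the members. Of 8 resident Kupffer cell markers, none at 0 in any library, 6 had negative log2 fold changes and 0 passed by limma (5 lower at an unadjusted p under 0.05, 3 called lower by DESeq2 and 1 with the replicate block), with a median log2 fold change of -1.10. Their summed levels were 315 to 572 units in controls and 311 to 408 after anti-PD-1, and most of each sum was C6 (means 172 and 192) and Cd5l (130 and 117). The scavenger receptor gene Cd163 was at 10.1 ± 6.22 and 0.65 ± 0.69 units, Timd4 at 3.06 ± 1.16 and 0.51 ± 0.32 and Marco at 8.53 ± 5.06 and 1.44 ± 1.14 (SD, n = 3 each), with groups that did not overlap for any of the 3. These 3 markers, with the largest falls of the 8, were named after their values were seen. In 4 of the 8 all anti-PD-1 values lay below all control values, against 9.98% of tested genes. Clec4f, also among these 4, had means of 66.3 and 42 units in controls and treated mice. The groups overlapped for C6, Cd5l, Vsig4 (means 19.2 and 8.88) and Folr2 (5.6 and 5.8). At an unadjusted p under 0.05, 6.24% of tested genes were lower by limma, and DESeq2 called 0.779% lower. The 8 T cell markers, none at 0, summed to 3.02 to 4.05 units in controls and to 44.7, 7.32 and 9.57 in anti-PD-1 replicates 1 to 3. Only Cd3e and Cd8a of them were tested, with a median log2 fold change of 1.84. By limma 0 of these 2 passed, both were higher at an unadjusted p under 0.05, and DESeq2 called both higher. Over all tested genes the last 2 shares were 5.04% and 1.05%. The part of either cell type in the members' levels was not tested. On the T cell and macrophage lists anti-PD-1 replicate 1 stood apart. Without it the log2 fold changes were 1.19 for Abcg5, 1.15 for Abcg8, 0.63 for Abca1 and 0.68 for Scarb1. That library held the lowest treated value of each of these genes, so leaving it out raises their fold changes by construction.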

How the data were processed

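RNA of whole liver was sequenced after ribosomal RNA depletion with a directional kit, per the labels' protocols. Tools listed in the submitters' processing notes are Bowtie2, RSEM 1.3.0, Trimmomatic 0.38 and edgeR, and the build is GRCm39. Their roles are not stated. For each mouse the authors deposited a normalized signal per gene. Every value was a whole multiple of the value of 1 read within 0.001 read (100% of values), and the scaling these columns imply equalled TMM factors recomputed from the recovered reads, which makes the unit a TMM-scaled CPM. Whether those reads are observed or rounded estimates cannot be seen.

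Gene identifiers were matched to symbols for 21407 of 21512 genes. Genes that reached 1 unit in 3 or more libraries entered limma 3.58.1 (intensity trend, log2(value + 0.5), two-sided, Benjamini-Hochberg, 0.05) in R 4.3.3. Fold changes on that scale understate changes of low genes. edgeR 4.0.16 with the authors' factors and DESeq2 1.42.0 were run on recovered reads, and all were tested on simulated data. The members and lists were chosen with earlier results of these data known. Named genes are the members, up to 3 genes of smallest unadjusted p per sterol list, 10 genes always considered and the 5 most like Abcg5 by each correlation. Some genes that this rule names are not reported here. Same-numbered libraries had correlated deviations from their group means (0.15, 0.13 and 0.25), all over the preset 0.1, so a replicate block was run beside the main fit. That pairing rests on the values alone.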

Additional observations from a re-analysis of the deposited data

How the results depend on the processing

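With 1 library left out, the log2 fold change of Abcg5 was 0.80 to 1.19, of Abcg8 0.72 to 1.15, of Abca1 0.38 to 0.63, of Scarb1 0.44 to 0.68 and of Mylip 0.21 to 0.29. Under other pseudocounts (0.1 and 2), filters (none, or 5 units), scalings, limma settings, edgeR, DESeq2 and the replicate block they were 0.99 to 1.04, 0.95 to 1.00, 0.39 to 0.50, 0.47 to 0.57 and 0.24 to 0.28. Of these, the filters, the limma settings and the block leave a fold change as it is by construction. With the replicate block, 27 genes were called higher and 13 lower, against 1 and 0 in the unpaired fit, and 1 member, Abcg5. DESeq2 called 147 genes higher and 109 lower, 3 members higher, 1 gene of the fatty acid synthesis and lipoprotein list (Acaca) and 1 of the oxysterol and bile acid list (Cyp7a1). Leaving out 1 library at a time gave 0 to 23 genes higher and 0 to 6 lower, and 0 members. The counts were 23 and 6 without anti-PD-1 replicate 1, and 0 and 0 without either of the other 2 anti-PD-1 libraries. Leaving out isotype control replicate 2 gave 2 and 0. The causes were not tested. With 1 library left out, the log2 fold change of Lpcat2 ran from -0.16 (without anti-PD-1 replicate 1) to 0.96 and that of Rxra from -0.011 (without anti-PD-1 replicate 2) to 0.18, against 0.45 and 0.08 with all libraries. The median of the members was 0.33 to 0.48 with 1 library left out and 0.32 to 0.39 under the other settings. Counting error was not compared with the spread between mice, and it is largest for low genes such as the T cell marker Cd3d, with 1, 3 and 4 reads in the controls.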
